A study of Mus musculus with 154 samples.

Results

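The genes described here are those of the major histocompatibility complex and the antigen presentation pathway that were counted in mouse liver. Every gene of the deposited table whose GENCODE vM21 symbol starts with H2- was taken, together with B2m, Tap1, Tap2, Tapbp, Psmb8, Psmb9, Psmb10, Cd74, Ciita and Nlrc5, which gave 32 of 13289 genes. Of these, 22 carried an H2- symbol and 27 lie on chromosome 17, while B2m lies on chromosome 2, Ciita on chromosome 16, Cd74 on chromosome 18, and Nlrc5 and Psmb10 on chromosome 8. Another 23 H2- genes of the annotation were not in the table.

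Livers came from 154 mice of 24 strains, all listed as male, 5 weeks old and fasted overnight. The control strain was B6 (C57BL/6J, n = 20). Each of 8 single chromosome substitution strains (CSSs; 7 or 8 mice each) was heterozygous for an A/J copy of chromosome 3, 6, 14 or 17 received from the dam, or of chromosome 4, 5, 8 or 10 received from the sire, on an otherwise B6 genome. Each of 15 double CSSs (3 to 6 mice each) carried an A/J chromosome from either parent. Strains are written by their substituted chromosomes, dam first, so that A17 stands for (B6.A17 x B6)F1 and A17:A8 for (B6.A17 x B6.A8)F1. The A/J chromosome 17 was carried by 26 mice, of the strains A17 (n = 8), A17:A4 (n = 4), A17:A5 (n = 5), A17:A8 (n = 5) and A17:A10 (n = 4), and these carriers were compared with the 128 mice of the 19 other strains. A/J chromosome 17 came from the dam in every carrier and always as a single copy of the whole chromosome, so the effect of an allele, of its parent of origin and of any locus on the chromosome cannot be told apart. The study asked how substituted chromosomes act on gene expression alone and in combination.

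Class I molecules are heavy chains that pair with beta-2 microglobulin (B2m) and show peptides from inside the cell to CD8 T cells. The peptides are cut by proteasomes, including the inducible subunits Psmb8, Psmb9 and Psmb10, carried into the endoplasmic reticulum by the Tap1 and Tap2 transporter and loaded with the help of tapasin (Tapbp), and the transactivator Nlrc5 drives these genes. Class II molecules, which are made by dendritic cells, macrophages and B cells under the control of Ciita, present peptides from outside the cell with the invariant chain (Cd74) and the loading factors H2-DM and H2-O. The complex is highly polymorphic, and B6 carries its b haplotype while A/J carries the a haplotype, which joins class II genes of k type with D-end class I genes of d type.

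Promoters of class I genes are known to hold an NF-kappaB site and a Y box. RefSeq promoter windows (GRCm38.p6, 250 bases before and 50 bases after a gene start) were found for 22 of the 32 genes. The letters GGGATTCCC were present, on either strand, in the windows of H2-K1, H2-D1, H2-Q6 and H2-Q7 and in 0.353% of all 32851 windows, and the Y box CTGATTGG in those of 9 member genes and in 4.10% of all windows. The stretches below run from 10 bases before the best match to the NF-kappaB letters to 10 bases after the best match to the Y box, which reads CCAATCAG on this strand, and both matches are in capitals. Shown are both classical genes, H2-Q10 and H2-Q7, which were lower in carriers of A/J chromosome 17, and H2-Q4, which was lower with A/J chromosome 3. The stretches are the B6 reference, and the A/J sequence was not analysed here.
H2-K1, chr17:34000322-34000467, minus strand: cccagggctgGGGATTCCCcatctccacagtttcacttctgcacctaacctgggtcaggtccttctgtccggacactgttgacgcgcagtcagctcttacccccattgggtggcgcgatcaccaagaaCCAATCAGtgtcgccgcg
H2-D1, chr17:35262914-35263058, plus strand: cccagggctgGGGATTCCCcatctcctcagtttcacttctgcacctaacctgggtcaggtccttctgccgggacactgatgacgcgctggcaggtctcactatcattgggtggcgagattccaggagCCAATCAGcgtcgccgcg
H2-Q7, chr17:35439013-35439156, plus strand: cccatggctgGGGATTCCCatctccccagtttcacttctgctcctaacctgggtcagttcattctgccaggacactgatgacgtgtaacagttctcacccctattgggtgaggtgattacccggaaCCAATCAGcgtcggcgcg
H2-Q4, chr17:35379434-35379579, plus strand: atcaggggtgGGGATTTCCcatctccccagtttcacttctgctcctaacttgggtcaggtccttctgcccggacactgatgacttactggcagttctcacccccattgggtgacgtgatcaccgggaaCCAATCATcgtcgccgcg
H2-Q10, chr17:35469904-35470052, plus strand: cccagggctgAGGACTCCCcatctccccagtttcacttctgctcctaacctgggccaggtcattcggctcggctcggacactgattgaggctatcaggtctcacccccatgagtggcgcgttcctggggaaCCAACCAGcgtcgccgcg
Counted from 1 at the first capital of each site, H2-Q4 differed from the searched letters by C7T in the NF-kappaB site and G8T in the Y box, and H2-Q10 by G1A and T5C in the NF-kappaB site and T5C in the Y box. The first letters of both sites were 118 bases apart in H2-K1 and H2-Q4 and 121 in H2-Q10. The search picked both sites together and allowed only a narrow range of spacings. The similar spacing in H2-Q4 and H2-Q10, which had no exact match, was thus partly set by the search.

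Libraries held between 4638701 and 30465477 counts (median 16116424), with a median of 15052760 in carriers and 16475053 in the others. Levels are given as CPM, counts scaled to a common library size with TMM factors, and the hepatocyte gene Alb was between 34530 and 116100 CPM in all mice. A library of A14:A4 had a sum of 2.94 CPM over 4 Y-linked genes against 228 to 432 in the other mice, and was kept as labelled. An A8 mouse (A8 replicate 2) stood apart in class II genes, with 140.6 CPM of Cd74 against at most 72.0 in any other mouse and 82.7 CPM of H2-Aa against at most 36.9. Its macrophage and dendritic cell lists were the highest of all mice, at 804.9 and 18.3 CPM against at most 798 and 18.2 elsewhere, their part in its class II level was not tested, and the calls that rest on A8 are given with and without this mouse.

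In B6 liver, B2m and 4 class I heavy chain genes had the highest levels of the 32 genes, while most other class I genes were at or below the level of the class II chains. Per kilobase of exon, the median B6 level was 1188 CPM for B2m, 202.2 for H2-K1, 196 for H2-Q10, which encodes a soluble class I molecule secreted by the liver, and 110 for H2-D1. H2-T23, whose product presents leader peptides to NK cell receptors, followed at 34.5 CPM per kilobase. Among the other non-classical genes, H2-T22 reached 7.84, H2-Q4 6.18, H2-Q6 4.12 and H2-Q7 4.07 CPM per kilobase, and H2-Q2 and H2-T10 only 0.387 and 0.242. The processing genes other than B2m lay between 1.22 (Psmb9) and 12.5 (Tapbp) CPM per kilobase. On the class II side, Cd74 had 18.4 CPM per kilobase and the chains H2-Eb1, H2-Aa and H2-Ab1 had 4.18, 3.97 and 3.92, whose B6 ranges overlapped. The transactivator Nlrc5 was at 2.25 CPM per kilobase and Ciita at 0.102. Whether a low class II level reflected few cells or little RNA per cell cannot be told apart in whole liver.

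Class II genes varied more from mouse to mouse than classical class I genes. Among the 20 B6 mice, the coefficient of variation of CPM was 11.95% for H2-K1, 14% for H2-D1, 11.1% for B2m and 9.29% for H2-T23, against 34.6% for H2-Aa, 35.1% for H2-Ab1, 32.1% for H2-Eb1 and 30.3% for Cd74. Psmb9, at 39.0%, was the most variable of the 7 class I processing genes, and its highest B6 mouse was 5.11-fold above its lowest.

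Among the B6 mice, 3 of the 9 relations tested had an adjusted permutation p below 0.05 by both Pearson and Spearman correlation. H2-Aa followed Cd74 with a Pearson r of 0.93 (permutation p = 1e-05, the smallest that 100000 permutations can give; Spearman rho = 0.85, permutation p = 1e-05), and H2-Ab1 followed H2-Eb1 with r = 0.88 (rho = 0.81, permutation p = 3e-05). H2-K1 followed H2-D1 with r = 0.90 (rho = 0.76, permutation p = 0.00023). These 3 relations kept r = 0.80, 0.74 and 0.82 without the 2 mice farthest from the median, and their Pearson adjusted p over 9 relations was 3e-05 each by permutation. H2-K1 and its light chain B2m had r = 0.33 (rho = 0.083, adjusted permutation p = 0.168 and 0.728), which became -0.18 without 2 mice. Across the classes, H2-K1 and H2-Aa had r = 0.24 (rho = 0.28, adjusted permutation p = 0.306 and 0.309). Tap1 with Psmb9 (r = 0.49, rho = 0.52), H2-K1 with Nlrc5 (r = 0.48, rho = 0.53) and Cd74 with the summed Kupffer cell and macrophage list (r = 0.47, rho = 0.56) had adjusted permutation p-values of 0.0528 each for r and of 0.0290, 0.0290 and 0.0254 for rho. Cd74 with the B cell list had r = 0.38 (rho = 0.18, adjusted permutation p = 0.126 and 0.504), and r was -0.10 without 2 mice.

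Substitution of chromosome 17 changed many of these genes, in both directions. In the additive model, which estimates the average effect of each substitution over all strains that carry it, 13 of the 32 genes were called at a false discovery rate (FDR) of 0.05 with edgeR's quasi-likelihood test, 8 higher and 5 lower in carriers. All 13 lie on chromosome 17, where 21.6% of the 630 tested genes were called (12.5% higher and 9.05% lower), against 1.15% of all 13289 genes (0.7% higher and 0.452% lower). Among the 27 members on chromosome 17, 48.1% were called. The 5 members on other chromosomes were not called (unadjusted p of 0.0946 to 0.587), nor by DESeq2. The median log2 fold change of the 32 genes was 0.08, against 0.00 over all genes, and the median of its absolute value was 0.16 against 0.05 over all genes and 0.07 over chromosome 17 genes. In the table, each gene had at least 15 counts in at least 39 mice, more than the 26 carriers, and 26 of the 32 members had 15 counts in 75% of the mice. The authors describe their filter as 15 counts in 75% of samples, but only 11852 of the 13289 genes met it here. H2-T10 and H2-Q2 did not, with 15 counts in 53.9% and 59.1% of mice.

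H2-T10 showed the largest of these changes. H2-T10 (ENSMUSG00000079491, chr17:36115876-36121465, mm10, minus strand, a polymorphic pseudogene in the annotation, of a gene pair known for ligands of gamma delta T cells) was between 4.22 and 11.5 CPM in carriers (median 7.84, n = 26) and between 0.0896 and 1.80 in the others (median 0.854, n = 128). Every carrier was above every other mouse. Its log2 fold change was 3.12 ± 0.097 (SE; adjusted p = 1.94e-65). H2-Q2 (ENSMUSG00000091705, chr17:35342242-35346762, plus strand) was between 3.65 and 8.13 CPM in carriers (median 5.60) and between 0.150 and 2.08 in the others (median 0.936), again without overlap, for a log2 fold change of 2.52 ± 0.10 (adjusted p = 2.87e-50). Carriers and the others did not overlap in only 3 of all 13289 genes (0.0226%), and the third was C4a, a complement gene of the same region. H2-Q5, a polymorphic pseudogene in the annotation, was between 2.51 and 5.87 CPM in carriers (median 3.47) and between 0.322 and 3.54 in the others (median 1.38), a log2 fold change of 1.44 ± 0.10 (adjusted p = 2.72e-27), and 11 carriers were above every other mouse. The low gene H2-K2, annotated as a pseudogene, was between 0.567 and 2.09 CPM (median 1.07) in carriers and between 0 and 1.69 (median 0.741) in the others, with a log2 fold change of 0.52 ± 0.14 (adjusted p = 0.00160).

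The 5 genes lower in carriers were all class I genes, and 3 of them, H2-Q10, H2-T23 and H2-K1, are abundant in liver. H2-T22, a close relative of H2-T10, was between 11.6 and 29.4 CPM in carriers (median 15.8) and between 22.7 and 47.5 in the others (median 28.8), so that 24 of 26 carriers were below every other mouse. Its log2 fold change was -0.79 ± 0.044 (adjusted p = 5.14e-37). H2-Q10 fell from a median of 824 CPM (572 to 1117) in the others to 612 CPM (492.9 to 873) in carriers, a log2 fold change of -0.53 ± 0.037 (adjusted p = 4.95e-28), and 12 carriers were below every other mouse. H2-T23 was between 59.8 and 98.3 CPM in carriers (median 75.6) and between 72.3 and 130 in the others (median 101.2), with a log2 fold change of -0.47 ± 0.035 (adjusted p = 6.78e-26). H2-Q7, which encodes the Qa-2 antigen, had medians of 11.8 and 18.3 CPM and overlapping ranges of 8.42 to 16.9 and 9.58 to 40.0, with a log2 fold change of -0.51 ± 0.066 (adjusted p = 4.75e-11). The classical gene H2-K1 was between 417 and 512.9 CPM in carriers (median 462) and between 358 and 744.5 in the others (median 617), with 111 of the 128 other mice above every carrier and a log2 fold change of -0.35 ± 0.041 (adjusted p = 5.15e-13).

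**Figure D1:**
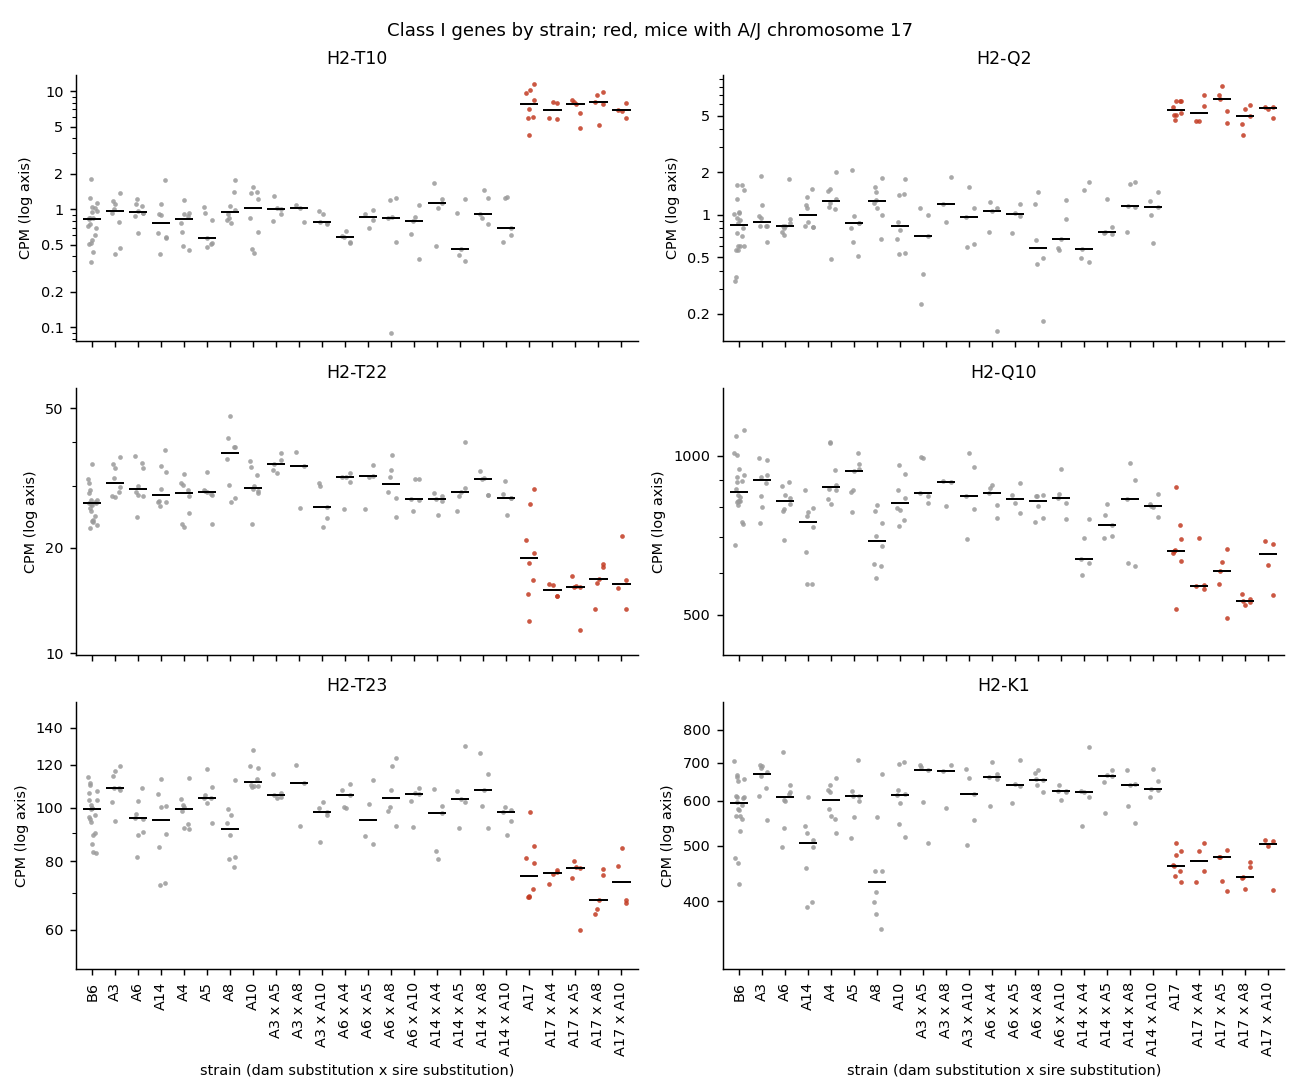
CPM of 6 class I genes in each of the 154 mice (points, log axis) by strain, with the strain median as a line and the 26 mice with A/J chromosome 17 in red. H2-T10 and H2-Q2 are higher in all carriers, while H2-T22, H2-Q10, H2-T23 and H2-K1 are lower with overlap, and H2-K1 is also low in A8 (median 433 CPM).

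The other classical gene was not among those called. H2-D1 was between 236 and 348.9 CPM in carriers (median 280.4) and between 200.4 and 369.4 in the others (median 283.9), and its log2 fold change was 0.01 ± 0.038 (adjusted p = 0.909). H2-Q6, H2-Q1, H2-Q4, H2-M3, which presents formylated peptides, and H2-T24 were not called either, with log2 fold changes of -0.03, 0.02, 0.08, 0.08 and 0.17. Summed over the 15 class I heavy chain genes, carriers had 1270 to 1867 CPM (median 1508) and the others 1312 to 2255 (median 1928). This sum was lower in carriers by 0.32 on the log2 scale (permutation p = 1e-05 over 100000 permutations of carriers among mice with the same sire, the smallest they can give; adjusted p = 1.5e-05 over 6 ratios and sums chosen after the values were seen) and was lower against each of the 5 sire backgrounds. A low sum was not particular to carriers, since A8, without A/J chromosome 17, had a median of 1483 CPM (1357 to 2039). The median of A14 was 1713 CPM.

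Several class I genes share sequence, so part of their counts is uncertain. Of all 50-base windows of its exons, the read length, 36.5% of H2-Q5, 31.97% of H2-Q6, 26.4% of H2-Q7, 21.8% of H2-Q4, 18.98% of H2-Q10, 16.1% of H2-Q2, 14.96% of H2-Q1, 13.6% of H2-T23 and 12.8% of H2-D1 occurred in another gene. H2-T10 and H2-T22 shared 31.7% and 31.3% of their windows with each other. They moved in opposite directions, and their sum, between 16.5 and 40.9 CPM in carriers (median 23.4) and between 23.5 and 48.5 in the others (median 29.9), was lower by 0.34 on the log2 scale (permutation p = 1e-05, the smallest possible), with -0.05 against the B6 sire and -0.59 to -0.36 against the others. The sum of H2-Q5, H2-Q6 and H2-Q7 had medians of 23.4 and 27.4 CPM and was lower by 0.22 (permutation p = 0.00089). How reads of the A/J alleles were divided among these genes was not tested.

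Of the 7 processing genes, 3 were called, with small effects. Tap2 was between 8.58 and 15.5 CPM in carriers (median 11.9) and between 4.48 and 15.02 in the others (median 10.02), with a log2 fold change of 0.32 ± 0.049 (adjusted p = 1.46e-08). The proteasome subunits Psmb9 and Psmb8 had log2 fold changes of 0.23 ± 0.082 (adjusted p = 0.0284) and 0.17 ± 0.058 (adjusted p = 0.0235), but the medians of Psmb9 were 5.76 and 5.73 CPM and those of Psmb8 13.9 and 12.9 CPM, with ranges that overlapped almost entirely. Neither call held without surrogate variables, with adjustment over all genes, with the stricter count filter, or in a model of carriers against all others. Tap1, which shares a start region with Psmb9, had a log2 fold change of -0.08 ± 0.065, Tapbp 0.08 ± 0.041, B2m 0.04 ± 0.029 and Psmb10 0.07 ± 0.056, and none was called. B2m, the partner of every class I heavy chain, had medians of 1027 and 1032 CPM.

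**Figure D2:**
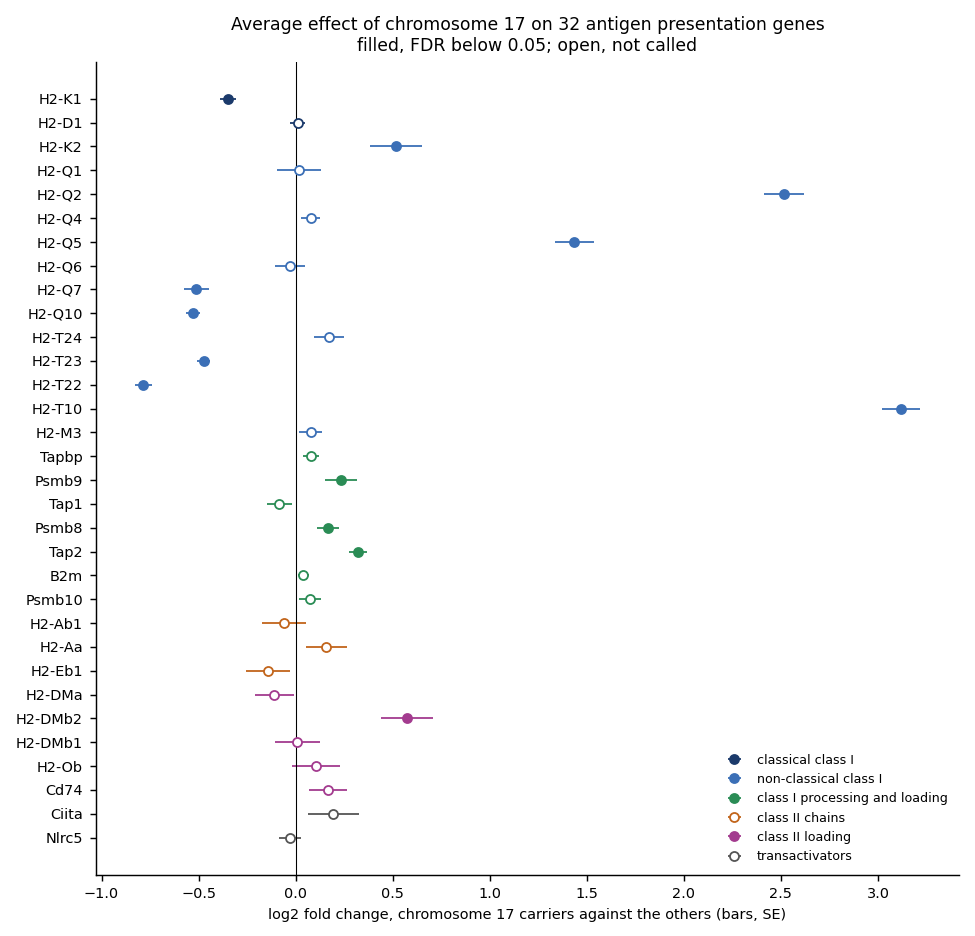
Average effect of chromosome 17 on each of the 32 genes as log2 fold change of carriers against the others, with the SE as bars, coloured by role and filled where the FDR was below 0.05. H2-T10 (3.12), H2-Q2 (2.52) and H2-Q5 (1.44) lie far to the right, 5 class I genes lie between -0.79 and -0.35, and the class II chains lie near 0.

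Class II chains were not called in the average effect of chromosome 17. H2-Aa was between 7.23 and 35.3 CPM in carriers (median 18.1) and between 7.83 and 82.7 in the others (median 17.1), with a log2 fold change of 0.16 ± 0.11 (adjusted p = 0.316). H2-Ab1 and H2-Eb1 had log2 fold changes of -0.06 ± 0.11 and -0.14 ± 0.11 (adjusted p = 0.792 and 0.417), and Cd74 had 0.17 ± 0.098 (adjusted p = 0.505), with 18.2 to 57.9 CPM in carriers (median 37.3) and 15.1 to 140.6 in the others (median 34.1). Of the 4 H2-DM and H2-O genes, which help load class II peptides or hold this loading back, only H2-DMb2 was called, at 0.58 ± 0.13 (adjusted p = 0.000311). H2-DMb2 had only 1 to 49 counts per mouse, and 24.8% of its 50-base windows occurred in another gene, mostly H2-DMb1, which was at 0.01 ± 0.12. The transactivators Ciita and Nlrc5 were at 0.19 ± 0.13 and -0.03 ± 0.055.

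Relative to Cd74 in the same mouse, however, the beta chains were lower in carriers. The ratio of H2-Eb1 to Cd74 CPM was between 0.0901 and 0.306 in carriers (median 0.204) and between 0.181 and 0.387 in the others (median 0.264), a difference of -0.39 on the log2 scale (permutation p = 1e-05). For H2-Ab1 the ratio had medians of 0.264 and 0.322 and a difference of -0.24 (permutation p = 1e-05), and both ratios were lower in carriers against all 5 sire backgrounds. The ratio of H2-Aa to Cd74 had medians of 0.465 and 0.497 and did not pass the test (difference of -0.04, permutation p = 0.392), but it was higher by 0.28 on the log2 scale in carriers against the B6 sire and lower against the others (-0.31 to -0.09). Fewer than 1% of the windows of these 4 genes are shared with another gene, and mapping of their A/J alleles was not tested.

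No gene of the cell type marker lists was called in the average effect of chromosome 17. With edgeR, 0 of 11 Kupffer cell and macrophage genes, 0 of 4 dendritic cell, 0 of 5 B cell, 0 of 1 T and NK cell, 0 of 7 sinusoidal endothelial and 0 of 8 hepatocyte genes were called, and 2, 0, 0, 0, 1 and 2 of them had an unadjusted p below 0.05, and DESeq2 called none. The summed Kupffer cell list was between 319 and 798 CPM in carriers and between 365 and 804.9 in the others, and Cd4 was the only gene of the T and NK cell list in the table. Of 37 further antigen presentation genes (chaperones, other proteasome subunits, cathepsins, transcription factors) and 17 interferon-induced genes, 0 were called by either tool, with medians of 0.01 and 0.07 and with 3 and 5 genes at an unadjusted p below 0.05.

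The changes were not spread over all genes of the region. Between the outermost members on chromosome 17 (chr17:33915899-37274484, mm10) lie 80 tested genes that are not members, of which 20% were called. This was close to the 20.4% of all 603 genes of the chromosome that are not members, which include these 80.

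Most of these effects were present against every sire background. Carriers were compared with mice that shared the sire substitution but had a B6 dam, and 10 members were called against B6, 9 each against A4, A5 and A8 and 8 against A10, where 17.1%, 7.14%, 4.44%, 17.3% and 5.24% of chromosome 17 genes and 3.67%, 0.339%, 0.218%, 10.1% and 0.263% of all genes were called. H2-T10, H2-Q2, H2-Q5, H2-T22, H2-Q7, H2-T23 and H2-Q10 were called in all 5 contrasts with the same sign. The H2-Q7 call against A10 was lost whichever of the 4 A17:A10 mice was left out, and that against A8 without A17:A8 replicate 3. The log2 fold change of H2-T10 was between 2.86 and 3.23, that of H2-Q2 between 2.18 and 2.67 and that of H2-Q10 between -0.69 and -0.41. H2-K1 was called in 4 contrasts (-0.42 to -0.33) and had -0.12 ± 0.089 (adjusted p = 0.355) against A8, whose own H2-K1 level was low. Tap2 was called against A4, A5 and A8 (0.42 to 0.55) and Tapbp against A8 alone (0.29 ± 0.094). Without the A8 mouse that stood apart, 10 members were called against A8. These differences between backgrounds were tested only as the interactions given below.

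**Figure D3:**
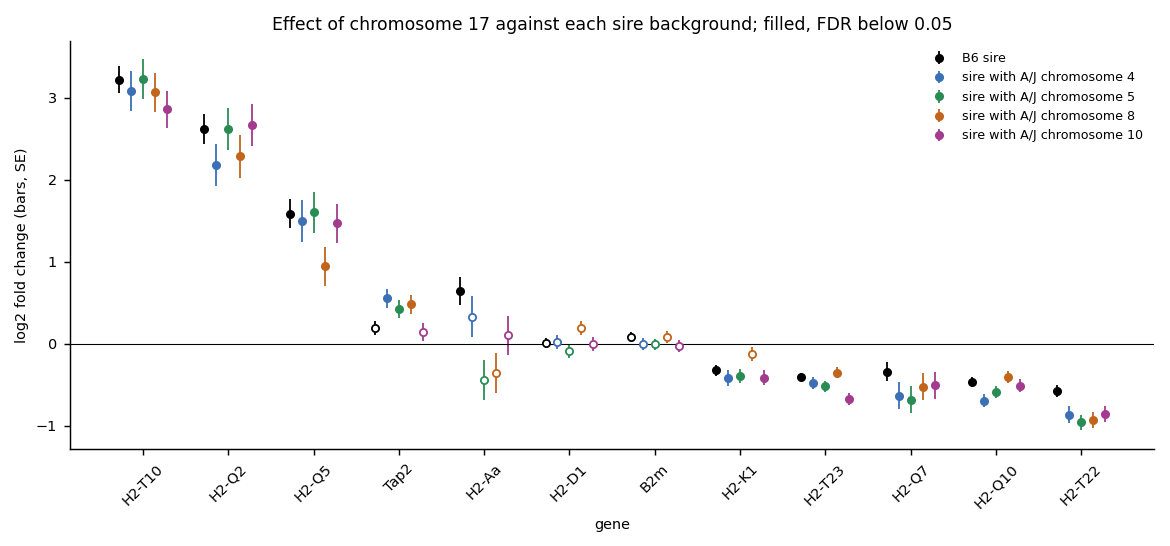
Log2 fold change of chromosome 17 (bars, SE) for 12 genes against mice with the same sire and a B6 dam, with a colour for each sire background and filled points called at an FDR of 0.05. The class I genes at both ends keep their sign in all 5 backgrounds, while H2-Aa ranges from -0.44 to 0.65 and is called only against the B6 sire.

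Members were called with other substitutions as well. By design, none of the members on chromosome 17 was then of A/J origin unless chromosome 17 was also substituted. The average effects of the other 7 substitutions included 9 calls. The share of members called was above that of all genes with chromosomes 3 (9.38% against 2.72%), 6 (12.5% against 3.88%) and 14 (3.12% against 2.17%). It was below that of all genes with chromosome 10 (3.12% against 4.73%) and with the remaining substitutions (0% against 2.25% to 9.08%). These differences in share were not tested. The strongest call was that of chromosome 3 on H2-Q4 (ENSMUSG00000035929, chr17:35379617-35385290, plus strand), which ranked first by p-value among 12552 genes outside chromosome 3. H2-Q4 was between 6.19 and 16.3 CPM in the 21 mice with A/J chromosome 3 (median 9.81) and between 9.97 and 25.9 in the other 133 (median 15.4). Its log2 fold change was -0.59 ± 0.054 (adjusted p = 9.11e-17), where 2.72% of all genes were called, and the strain medians were 10.6 CPM in A3, 9.50 in A3:A5, 10.4 in A3:A8 and 9.81 in A3:A10 against 11.97 to 17.5 in the strains without it. The groups overlapped, and the highest chromosome 3 carrier, an A3 mouse at 16.3 CPM, stood above the other 7 A3 mice (8.29 to 12.4 CPM). Psmb9 (0.41 ± 0.088, adjusted p = 0.00418) and H2-T22 (0.15 ± 0.045, adjusted p = 0.0430) were higher with chromosome 3. The B cell gene Cd79a was lower (-0.68 ± 0.17, adjusted p = 0.0185), as was the cathepsin Ctsl (-0.16 ± 0.043), and their part in these values was not tested.

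With chromosome 6, 4 members were higher and none lower, where 3.88% of all genes were called and 2.47% called higher. They were Psmb9 (0.35 ± 0.082, adjusted p = 0.00630), Tap1 (0.21 ± 0.063, adjusted p = 0.0401), H2-K1 (0.13 ± 0.040, adjusted p = 0.0461) and B2m (0.09 ± 0.029, adjusted p = 0.0498). Psmb9 was not particular to chromosome 6, since its average effect was positive with all 8 substitutions (0.10 to 0.41). It was 0.24 with chromosome 5 and 0.27 with chromosome 8, neither of them called. The B6 median of Psmb9 was 4.46 CPM, against 5.73 over all 128 mice without A/J chromosome 17, B6 included. Tap1 was between 8.23 and 22.99 CPM in the 28 mice with A/J chromosome 6 (median 15.1) and between 6.17 and 22.3 in the other 126 (median 12.98), and the groups overlapped for all 4 genes. Of the 37 further antigen presentation genes, 5 rose and 0 fell with chromosome 6, among them Psme2, a proteasome activator subunit (0.14 ± 0.033), Tapbpl, a relative of tapasin on chromosome 6 itself (0.15 ± 0.046), Psmb7 (0.09 ± 0.028) and Hfe (0.08 ± 0.025). Of the 17 interferon-induced genes, 5 rose, including the GTPase Igtp (0.32 ± 0.078) and Irgm2 (0.26 ± 0.069), and the list's median was 0.26 against 0.00 over all genes. H2-Q10 was lower with chromosome 14 (-0.25 ± 0.035, adjusted p = 3.27e-07, where 2.17% of genes were called), with 572 to 968 CPM in 28 carriers (median 760) and 492.9 to 1117 in the other mice (median 818), and Tap2 was higher with chromosome 10 (0.16 ± 0.047, adjusted p = 0.0272, where 4.73% were called). Chromosomes 4, 5 and 8, where 9.08%, 4.12% and 2.25% of all genes were called, gave 0 member calls with edgeR and with DESeq2, with 3 or 4 members each at an unadjusted p below 0.05. Chromosome 8 had 3 calls with 0 surrogate variables and 1 with 10, and chromosome 4 had 2 with 10. Of the 37 further antigen presentation genes, 4 were called higher and 1 lower with chromosome 4. With chromosome 5, 2 were called higher and 2 lower, and with chromosome 8, 1 higher and 1 lower. Those of chromosome 4 included the chaperones Hspa5 (0.30 ± 0.075) and Canx (0.10 ± 0.032) and the lysosomal reductase Ifi30 (-0.17 ± 0.046). The higher genes were Irf1 (0.24 ± 0.075) and the class I-like gene Mr1 (0.23 ± 0.070) with chromosome 5, and Pdia3, a member of the loading complex, with chromosome 8 (0.17 ± 0.046).

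**Figure D4:**
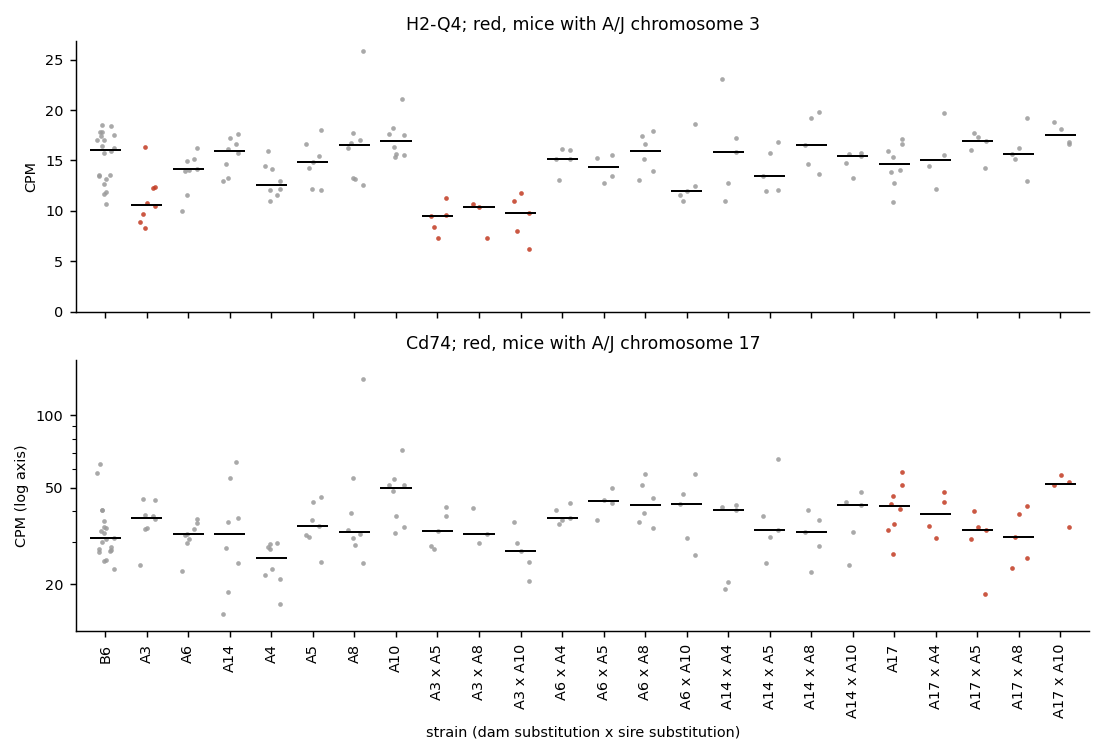
CPM of H2-Q4 (linear axis, red for A/J chromosome 3) and of Cd74 (log axis, red for A/J chromosome 17) in each mouse by strain, with strain medians as lines. H2-Q4 medians are 9.50 to 10.6 CPM in the 4 strains with chromosome 3 and 11.97 to 17.5 in the others, and the A8 mouse at 140.6 CPM of Cd74 stands above all others.

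In the model with interactions, a main effect is the difference of a single CSS from B6. Over the 8 substitutions, 29 main effects on members were called, of which 10 were those of A17 (3.67% of all genes called), 5 each those of A3 (3.70%), A8 (29.6%) and A10 (6.64%), 3 those of A14 (22.5%) and 1 that of A6 (8.09%). H2-Aa was called with A17 at 0.65 ± 0.17 (adjusted p = 0.00379), where it had 13.1 to 35.3 CPM (median 23.8, n = 8) against 9.69 to 31.6 in B6 (median 15.1, n = 20) and the strains overlapped. In the same contrast, 1 of 11 Kupffer cell and macrophage genes was called higher and 4 had an unadjusted p below 0.05, with a list median of 0.13, and their part in the H2-Aa value was not tested. The 15.6% of members called with A8 were below the 29.6% of all genes. The same held for A14 (9.38% of members) and A6 (3.12%). Over all 13289 genes, 2220 were called lower and 1719 higher with A8. Among the members, 4 abundant class I pathway genes were lower in A8, namely H2-K1 (-0.23 ± 0.070), H2-D1 (-0.21 ± 0.069), H2-Q10 (-0.24 ± 0.060) and Tapbp (-0.27 ± 0.074), while H2-T22 was higher (0.32 ± 0.073). Without the A8 mouse that stood apart, these 5 effects were -0.30, -0.29, -0.24, -0.29 and 0.33 in the same order, and all were still called. With 10 surrogate variables none of the 5 was called, and with 0 there were 19 A8 calls. The A10 effects were all positive, where 3.66% of all genes were called higher, and included H2-T23 (0.28 ± 0.051, adjusted p = 0.000156) and Tap1 (0.35 ± 0.11). Chromosomes 4 and 5, where 13.5% and 0.768% of all genes were called, gave 0 main effect calls with edgeR and DESeq2, and 6 and 2 members at an unadjusted p below 0.05.

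An interaction is the part of a double CSS's difference from B6 that the sum of the main effects leaves over. Interactions were called for 17 member and cross combinations in 4 of the 15 crosses. The cross A14:A8 had 7 calls, where 32.4% of all genes were called, and A6:A8 had 6, where 24.8% were called, so the 21.9% and 18.8% of members called were below the background. The same 6 genes, H2-K1, H2-D1, H2-Q10, H2-T23, Tapbp and Tap2, had positive interactions in both crosses, which share the A8 and B6 mice, between 0.32 and 0.55 in A14:A8 and between 0.28 and 0.43 in A6:A8, where 18.1% and 13.4% of all genes were called higher.

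H2-K1 shows the pattern. It was between 358 and 669 CPM in A8 (median 433), between 391 and 609 in A14 (median 505) and between 429 and 704 in B6 (median 594). The 5 A14:A8 mice had 549, 586.5, 638.5, 641.6 and 679.1 CPM, and the 6 A6:A8 mice had 622 to 679.1 CPM. The double CSSs were thus at the B6 level and above most A8 mice, with interactions of 0.55 ± 0.11 (adjusted p = 3.17e-05) in A14:A8 and 0.36 ± 0.11 (adjusted p = 0.00618) in A6:A8. The highest A8 mouse, at 669 CPM, was the one that stood apart in class II genes, and without it the H2-K1 interactions were 0.62 ± 0.10 (adjusted p = 4.35e-07) and 0.45 ± 0.097 (adjusted p = 0.000229), and all 13 calls of both crosses were still made. The summed hepatocyte markers were also lowest in A8, with strain medians of 69040 CPM in A8, 80580 in A14, 101500 in B6, 108800 in A14:A8 and 89420 in A6:A8. Most of this sum was Alb, whose median over all mice was 77840 CPM against 98980 for the sum. Of the 8 hepatocyte genes, 4 had positive interactions in A14:A8 and none a negative one, and 4 had positive and 1 a negative one in A6:A8, and their part in the class I values was not tested. With 10 surrogate variables, 2 of the 7 A14:A8 calls and 0 of the 6 A6:A8 calls were made. H2-T24 went the other way in A14:A8 (-0.76 ± 0.23, adjusted p = 0.00583).

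In A3:A10, 3 members had negative interactions, where 1.17% of all genes were called and 0.737% called lower, and the 32 members had a median of -0.38 against 0.01 over all genes. They were H2-T23 (-0.41 ± 0.083, adjusted p = 0.00201), Tap1 (-0.69 ± 0.18, adjusted p = 0.0215) and H2-T22 (-0.43 ± 0.11, adjusted p = 0.0216). Tap1 was between 13.8 and 19.7 CPM in A3 (median 15.5) and between 13.4 and 17.6 in A10 (median 16.9), but 8.62, 10.4, 10.9, 13.8 and 14.4 CPM in the 5 A3:A10 mice, near the B6 median of 12.5. H2-T23 likewise had medians of 109 CPM in A3 and 112 in A10, and was 86.5, 97.3, 98.3, 99.9 and 102.5 CPM in A3:A10 against a B6 median of 99.7. Of the 17 interferon-induced genes, 11 had negative interactions in this cross and none a positive one, with a list median of -0.89. Irgm2 (-1.01 ± 0.19), Ifi47 (-1.09 ± 0.26), Iigp1 (-0.94 ± 0.18) and Irf7 (-0.76 ± 0.16) were among them. The summed interferon list had medians of 691.1 CPM in A3, 612 in A10, 444 in A3:A10 and 532 in B6. In A6:A10, A14:A10 and A17:A10, tested against the same A10 and B6 mice, the list medians were -0.39, -0.36 and -0.46. The member medians there were -0.20, -0.17 and -0.13. List genes called lower were 0, 3 and 1 of 17, where 0.0527%, 4.16% and 0.113% of all genes were called. As main effects, 8 of the 17 were called higher with A10 and 7 with A3. Their part in the A3:A10 values was not tested. Without the A3:A10 mouse whose omission mattered most, only H2-T23 of the 3 members was called in that cross.

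The remaining interaction call was H2-Aa in A17:A8 (-1.001 ± 0.31, adjusted p = 0.0258, where 8.68% of genes were called). H2-Aa was 10.8, 11.7, 18.1, 18.1 and 18.4 CPM in the 5 A17:A8 mice, against medians of 23.8 in A17, 19.4 in A8 and 15.1 in B6. Without the A8 mouse that stood apart in class II genes, the interaction was -0.63 ± 0.28 (adjusted p = 0.149). The other 11 crosses gave 0 member calls with edgeR, with 0 to 7 members at an unadjusted p below 0.05, and DESeq2 called 2 members in them. Of all genes, 7.56% were called in A3:A8, 0.0527% in A6:A10, 4.63% in A14:A4, 0.113% in A17:A10, 4.04% in A14:A5, 0.542% in A6:A4, 4.16% in A14:A10, 1.21% in A17:A4 and none in A3:A5, A6:A5 and A17:A5.

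A joint test of all 23 strain coefficients called 20 of the 32 members, where 51.4% of all genes were called, and a joint test of the 15 interactions called 9, or 28.1%, where 27.4% were called. With 10 surrogate variables the latter called 2 members, and with 0 it called 12. The 9 were H2-K1, H2-Q10, H2-T22, H2-T23, Tapbp, Cd74, H2-Aa, H2-Ab1 and H2-Eb1, with the smallest adjusted p for H2-T23 (3.05e-06). The strongest chromosome 17 responders, H2-T10, H2-Q2 and H2-Q5, were among the genes not called in it.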

How the data were processed

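RNA from caudate lobe liver of 154 mice was sequenced by the authors as stranded total RNA with single-end 50-base reads. The authors mapped reads to mm10 with TopHat2, gave those left unmapped a further pass against a genome built for A/J, and used HTSeq to count genes, and the deposited values are these raw counts. Reads of diverged A/J alleles or of similar genes could be assigned differently in these steps, which was not tested and bears on the polymorphic H2 genes. The 3 mice that the authors removed are not in the table, and flow cells are not given per library. Mice of a strain came from several cages, but cages and litters are not given per mouse and were not in the models. The p-values thus measure the spread between mice and treat each mouse as independent.

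Gene names and positions came from GENCODE vM21 and promoter sequences from RefSeq (GRCm38.p6). All 13289 genes were normalized by TMM, and tests were quasi-likelihood F-tests of edgeR (version 4.0.16, R version 4.3.3, legacy=TRUE) with 5 surrogate variables from svaseq (sva version 3.50.0), in an additive model of 8 substitutions and in a model with 15 interactions. P-values were adjusted by Benjamini-Hochberg within each effect, separately for genes on and off the substituted chromosome, at an FDR of 0.05, and in joint tests over all genes. Standard errors are the absolute log2 fold change divided by the square root of F. Correlations used log2 CPM with a prior count of 2 and 100000 permutations and were tested on both sides. Simulated counts were run only through models without surrogate variables, for the average effect of chromosome 17 and the A14:A8 interaction. The models with 5 surrogate variables were not tested in this way. Samples were grouped by the strain in their labels, and precision is limited by 3 to 20 mice per strain.

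The members and lists were chosen with earlier results of these data known. Lists cover further antigen presentation genes, interferon-induced genes and markers of Kupffer cells and macrophages, dendritic cells, B cells, T and NK cells, sinusoidal endothelium and hepatocytes. Named genes are 17 classical and well known members, every member called with chromosome 17, the 3 called members with the smallest adjusted p in each other average effect, every called interaction and called genes of the further antigen presentation list. Other names were chosen after their values were seen, and some list genes are not reported here. Alternatives were 0 or 10 surrogate variables, DESeq2's size factors, DESeq2 (version 1.42.0), at least 15 counts in 75% of mice, legacy=FALSE, adjustment over all genes, a model of carriers against all others, prior count and depth for correlations, and leaving out each double CSS mouse or the A14:A4 library with low Y-linked counts. The ratios, sums and the omission of the A8 mouse were added after seeing the data.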

Additional observations from a re-analysis of the deposited data

Results flagged for a closer look

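Log2 values of the summed CPM of class I heavy chains, class I processing genes and class II genes were checked for mice far from the rest of their strain in 66 groups of 4 to 10 mice, of which about 5% would be flagged by chance and 4 were. An A8 mouse had 336 CPM of class II chains and loading genes, against at most 163.1 in any other mouse. Among the A17:A10 mice, 1 had 66.1 CPM of class II genes against a strain median of 111. An A17 mouse had 1867 CPM of class I heavy chains against a strain median of 1576. It had the highest H2-Q10 (873 CPM), H2-T23 (98.3 CPM) and B2m (1316 CPM) of all carriers but the lowest Tap1 (6.17 CPM), and its H2-T10, at 10.2 CPM, was within the carriers' range. An A14:A5 mouse had 1364 CPM of class I processing genes against a strain median of 1186.

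The tests of interactions themselves flagged 17 effects of a chromosome that differed with the other chromosome of the cross. In A14:A8 these were H2-K1 (0.55), Tapbp (0.50), H2-Q10 (0.39), H2-D1 (0.39), Tap2 (0.47), H2-T23 (0.32) and H2-T24 (-0.76). In A6:A8 they were H2-T23 (0.33), Tapbp (0.43), H2-K1 (0.36), H2-Q10 (0.28), H2-D1 (0.31) and Tap2 (0.37). In A3:A10 they were H2-T23 (-0.41), Tap1 (-0.69) and H2-T22 (-0.43), and in A17:A8 H2-Aa (-1.001).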

How the results depend on the processing

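The 8 members called higher in chromosome 17 carriers became 2 when genes with fewer than 15 counts in 75% of mice were left out, since H2-T10, H2-Q2, H2-K2 and H2-DMb2 were then not tested and Psmb8 and Psmb9 were not called, and were 6 to 10 otherwise. The 5 called lower were 5 under every alternative run. The 29 main effects became 47 with 0 and 19 with 10 surrogate variables, and the 17 interactions became 36 and 6 (the cause was not tested). Over all genes, 93 were called higher and 60 lower with chromosome 17, against 299 in either direction with 0 and 279 with 10 surrogate variables. With 10 surrogate variables the A14:A8 interactions fell from 4305 to 1465, the A6:A8 interactions from 3299 to 252 higher and 170 lower and the A8 main effects from 3939 to 1222, and with 0 the average effects of chromosome 6 rose from 516 to 1230. Without the A8 mouse that stood apart, 25 interactions were called, among them 6 in A3:A10, while H2-Aa in A17:A8 was not. Omission of single double CSS mice gave 44 to 46 calls (45 with all mice) against the sire backgrounds and 15 to 19 interactions. The number called in A17:A8 was 0 without either of 2 mice (replicates 3 and 4) and at most 3, and in A3:A10 it was 1 without replicate 1 and 3 with all mice. The total of 9 calls in the other average effects was 7 to 9, but not of the same members, since H2-T22 and Psmb9 with chromosome 3 and Tap1 and Psmb9 with chromosome 6 were not called with 0 surrogate variables, nor H2-T22 with chromosome 3, Tap1 and B2m with chromosome 6 and Tap2 with chromosome 10 with 10. The joint test of interactions called 2 to 12 members and the joint test of strains between 18 and 24. No effect called above changed its sign. Effects of chromosome 17 on members that were not called did, among them H2-D1 (-0.03 to 0.03) and H2-Q1 (-0.09 to 0.05). The r of H2-K1 with B2m and of Cd74 with the B cell list also changed sign without 2 mice. No paired analysis was possible because the labels give no replicate numbers and number no mice across strains. Levels of H2-T10, H2-Q2, H2-K2, H2-DMb2, H2-Ob and Ciita rest on few counts per mouse.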
